A study of Homo sapiens with 24 samples.

Results

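Total RNA of A-431, a cell line from an epidermoid carcinoma, was compared with total RNA of U-2 OS, a cell line from an osteosarcoma, across all expressed genes. Membership followed the labels alone: the 4 total RNA libraries of A-431, numbered 9 to 12, and the 4 of U-2 OS, numbered 1 to 4, made up 8 of the 24 libraries of the series. Of 51715 genes in the files, 18095 had enough counts to be tested. The study sequenced poly(A)-selected RNA of whole cells and of the cytoplasm from A-431, U-2 OS and the glioblastoma line U-251MG, with 4 libraries for each line and fraction. Cells were grown without treatment in the media of their providers, and the replicates were described as biological, although no label says which culture a library came from. The p-values therefore measure the spread between these libraries, which may be technical. Each group is 1 established line, so what belongs to the tumour type and what belongs to the single line cannot be told apart.

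Epidermal keratinocytes are held together by E-cadherin junctions and desmosomes, are anchored to laminin by hemidesmosomes, and fill their cytoplasm with keratin filaments. Osteoblasts are mesenchymal cells that secrete a matrix of type I collagen and SPARC, carry N-cadherin and cadherin 11, and use vimentin as their intermediate filament. Carcinoma lines keep much of the first programme, and sarcoma lines much of the second, and transcription factors such as ZEB1 repress the epithelial genes by binding E-boxes with the letters CAGGTG. A-431 is known for an amplified EGFR gene, and U-2 OS for a lack of p16 and telomeres kept without telomerase.

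The 12 desmosomal, junctional and epithelial-factor genes named next were higher in A-431 and hold that E-box, in either orientation, within 250 bases before a RefSeq start (build GRCh38.p14). Of 52 genes of these 3 groups called higher in A-431, only 30 have a promoter entry, and the others could not be searched. The 12 are out of those 30, against 20.6% of the 27305 genes of the whole promoter table. The genes were CLDN7, CRB3, DSC2, DSG2, DSP, ELF3, GRHL3, JUP, NECTIN4, OCLN, PATJ and RAB25. Of 43 collagen and cytoskeletal genes higher in U-2 OS, 31 have an entry, and 6 of these (19.4%) held it. The AP-1 letters TGANTCA, whose first letters can overlap the end of an E-box, were searched in the same way and were in 3 of the same 30 genes, in 2 of the 31 (6.45%) and in 8.06% of all genes. These matches describe the letters and say nothing of what binds there. Stretches from the 6 of them with the most counts in A-431 follow, because these are structural genes of the epithelial junction and a factor of the same programme; the E-box nearest the start is in capitals, and each is written 5′ to 3′ on the strand of the gene.
DSP, desmoplakin (chr6:7541546-7541631, plus strand, 85 bases before the start): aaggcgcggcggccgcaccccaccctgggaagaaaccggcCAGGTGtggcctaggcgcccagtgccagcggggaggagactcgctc
DSG2, desmoglein 2 (chr18:31498021-31498106, plus strand, 116 bases before the start): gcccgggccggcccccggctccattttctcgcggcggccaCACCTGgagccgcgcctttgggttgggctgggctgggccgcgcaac
JUP, plakoglobin (chr17:41785977-41786059, minus strand, 43 bases before the start): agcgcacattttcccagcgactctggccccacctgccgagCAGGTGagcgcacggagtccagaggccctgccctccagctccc
PATJ, a tight junction scaffold (chr1:61742410-61742479, plus strand, 30 bases before the start): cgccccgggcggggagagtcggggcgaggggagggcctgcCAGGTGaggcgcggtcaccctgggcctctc
DSC2, desmocollin 2 (chr18:31102532-31102617, minus strand, 156 bases before the start): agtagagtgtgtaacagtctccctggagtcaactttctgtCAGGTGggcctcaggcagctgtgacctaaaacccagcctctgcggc
ELF3, an epithelial transcription factor (chr1:202010427-202010512, plus strand, 120 bases before the start): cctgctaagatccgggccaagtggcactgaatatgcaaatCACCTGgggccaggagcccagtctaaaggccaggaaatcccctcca

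In total RNA 2948 genes were higher in A-431 (16.3% of those tested) and 4194 were higher in U-2 OS (23.2%), where a gene was called at an adjusted p under 0.001 and a difference of at least 2-fold in edgeR's quasi-likelihood test. The counts of called list members given below are to be read beside these shares. Without the fold minimum 69.9% of the tested genes were called, 5805 higher in A-431 and 6842 higher in U-2 OS. Large differences were more often in favour of U-2 OS: a log2 ratio (A-431 over U-2 OS) of at least 4 in size was reached by 706 called genes higher in A-431 and 1974 higher in U-2 OS. Among the 8719 genes with at least 10 counts per 1000000 (CPM) in every library of both lines, 81.2% were not called. The median log2 ratio of all tested genes was -0.09, and the median size 0.75. A single gene, EGFR, stood at the top right of the plot of ratio against level, and the genes of matrix and mesenchyme at the lower right.

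**Figure D1:**
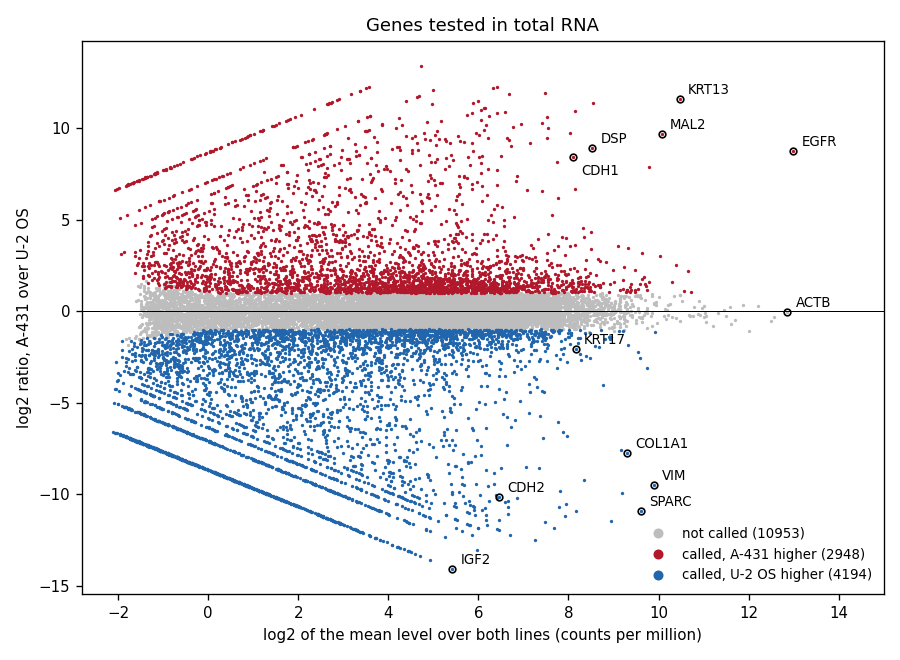
Each point is 1 of the 18095 tested genes, with the log2 of its mean CPM over both lines on the horizontal axis and its log2 ratio, A-431 over U-2 OS, on the vertical axis. Red points are the 2948 genes called higher in A-431, blue points the 4194 called higher in U-2 OS, and the circled genes are those described in the text, with ACTB near 0. The slanted lines of points at low level are genes with no or a handful of counts in one line, whose fitted ratio is no measured fold.

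More genes had a read in U-2 OS. A count of at least 1 was found for 21890.5 ± 282 genes per A-431 library and 24513.8 ± 301 per U-2 OS library (SD, n = 4), and the groups did not overlap (exact permutation test, two-sided, p = 0.0286, the lowest value these group sizes can give). After thinning to equal totals the difference, A-431 minus U-2 OS, was -2797.5 genes. The 8 libraries held between 21805430 and 32345513 counts in genes, so 1 count was below 0.05 CPM. Reads not wholly within exons made up 12.7% in A-431 and 14.9% in U-2 OS (exact permutation p = 0.0286), and their part in the number of genes with a read was not tested. The mitochondrially encoded share of counts was 2.52% to 4.6% in A-431 and 3.37% to 5.17% in U-2 OS, highest among A-431 libraries in library 11. By type, 57.8% of 944 tested long non-coding RNA genes were called, against 41.3% of 13628 protein-coding genes and 16.8% of 2117 processed pseudogenes.

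Both lines held some of the markers that define their tumour type and not others. Of the squamous markers, CDH1, DSP, KRT5, DSG3, TP63 and ITGB4 were called higher in A-431, while SFN (287 against 174 CPM) and LAMB3 (166 against 123 CPM) were less than 2-fold apart and KRT17 and KRT14 were higher in U-2 OS. Of the mesenchymal markers, VIM, SPARC, COL1A1, CDH11, CDH2, ZEB1 and FN1 were called higher in U-2 OS. Other osteoblast genes were near the floor in U-2 OS as well: ALPL, the bone alkaline phosphatase, was at 2.17 CPM, COL1A2 at 0.605, and SP7, BGLAP and IBSP, which mark mature osteoblasts, were at 0.0441, 0.188 and 0. Of 19 blood and endothelial markers 8 were tested, 2 were higher in A-431 (CD68 and ITGAM) and 4 in U-2 OS, where VWF, of endothelium, was at 2.26 CPM and PTPRC, of leukocytes, at 0.783, and HBB was at 0 in all 8 libraries.

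**Figure D2:**
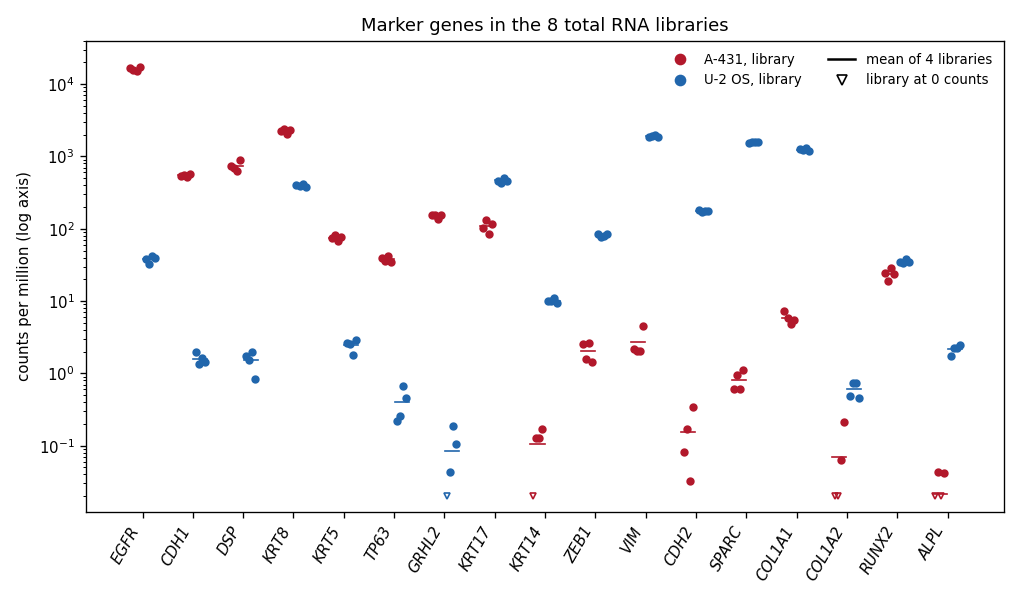
Points are single libraries, 4 per line (A-431 red, U-2 OS blue), lines are group means, and the vertical axis is CPM on a log scale, with open triangles for libraries at 0. EGFR, CDH1, DSP, KRT8, KRT5, TP63 and GRHL2 lie higher in A-431 and the groups do not overlap, KRT17 and KRT14 lie higher in U-2 OS, and RUNX2 is close in both. Groups without overlap were found for 76.8% of all tested genes.

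EGFR, the receptor of epidermal growth factor (chr7:55086710-55279321 in GRCh37), took more counts per library of its line than any other called gene. A-431 libraries 9 to 12 held 16556, 15745, 15211 and 17365 CPM, and U-2 OS libraries 1 to 4 held 38, 32.6, 41.5 and 39.9 CPM. All A-431 libraries were far above all U-2 OS libraries, 426-fold by the fit (log2 ratio 8.74 ± 0.087 SE, adjusted p = 4.40e-27), and EGFR alone took 1.46% to 1.66% of all A-431 counts. Neighbours on chromosome 7 were higher too. Of 11 other protein-coding genes tested within 1.5 megabases of EGFR, 8 were called higher in A-431 and none higher in U-2 OS, a choice of region made after the values were seen. LANCL2, the next gene, was at 484 against 40.7 CPM (log2 ratio 3.57). PSPH, an enzyme of serine synthesis, had a log2 ratio of 3.03, NIPSNAP2 of 2.78 and CCT6A, a chaperonin subunit, of 1.58. SEC61G, on the other side of EGFR, was at 41.4 against 46.6 CPM and was not called. ZNF713 and PHKG1, which lie on the side of LANCL2 among the called genes, were not called either.

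**Figure D3:**
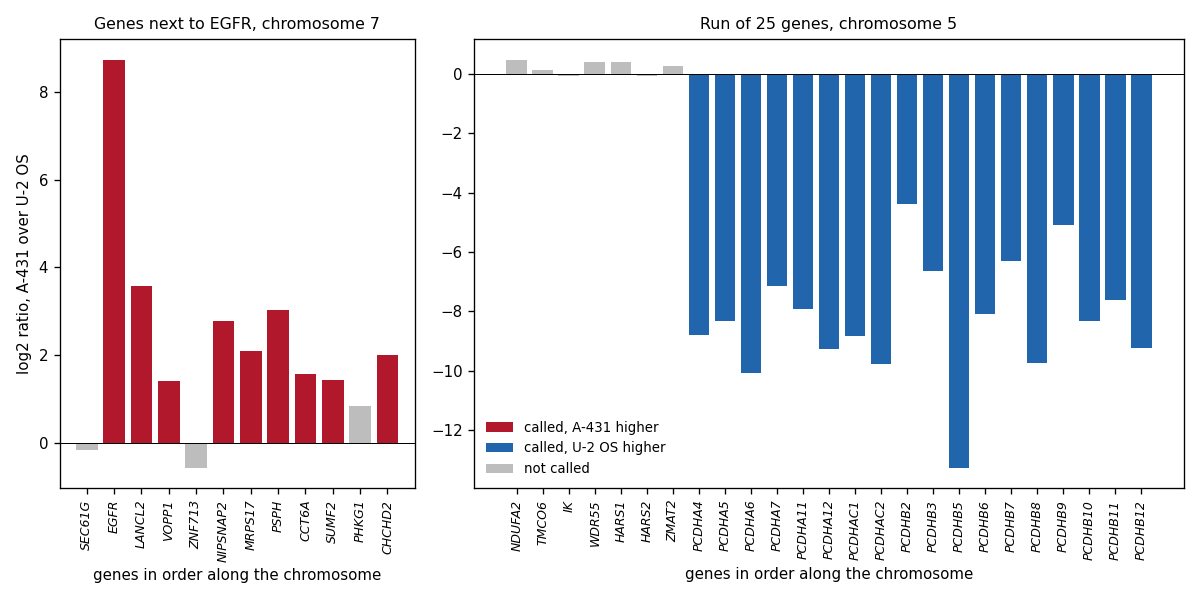
Bars give the log2 ratio, A-431 over U-2 OS, of tested protein-coding genes in their order along the chromosome, red where called higher in A-431, blue where called higher in U-2 OS and grey where not called. Left, EGFR and the 11 genes next to it on chromosome 7, of which 8 are red. Right, the 25 genes of the run on chromosome 5 with the lowest median, where 7 grey genes border 18 protocadherin genes in blue.

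The rest of the ERBB family divided between the lines. Of 22 tested receptors, ligands and adaptors, 7 were called higher in A-431 and 8 in U-2 OS. Among receptors, ERBB3 was at 135, 132, 124 and 139 CPM in A-431 and 7.5, 6.52, 7.61 and 6.89 CPM in U-2 OS (log2 ratio 4.21 ± 0.069 SE, adjusted p = 2.79e-24), ERBB2 was less than 2-fold apart (94.2 against 67.4 CPM), and ERBB4 had no count in A-431 and a mean of 0.62 CPM in U-2 OS, at least 5.24-fold higher against a floor of 3 counts per library. The ligands that bind EGFR divided as well. Higher in A-431 were TGFA (176 against 12.4 CPM, log2 ratio 3.83 ± 0.067), EREG (14.6 against 1.07 CPM) and BTC (7.64 against 0.323 CPM), with EGF itself higher in U-2 OS (1.22 against 4.2 CPM), HBEGF not called and AREG under 0.5 CPM in both. The neuregulins, ligands of ERBB3 and ERBB4, were higher in U-2 OS, NRG1 at 0.598 against 7.63 CPM, NRG2 at 0.00804 against 0.587 and NRG3 at 0 in A-431 against 5.22 CPM. ERRFI1, a feedback inhibitor of EGFR, was higher in A-431 (1.42 ± 0.048), and LRIG1, which also restrains the receptor, was higher in U-2 OS (-2.65 ± 0.094).

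Other receptor tyrosine kinases were more often higher in U-2 OS, 19 of 33 tested against 5 in A-431. The 5 were INSR, MET, MST1R, DDR1 and EPHA1. MET, the receptor of hepatocyte growth factor, held 1153, 1161, 1111 and 1246 CPM in A-431 and 118, 105.1, 104 and 106 CPM in U-2 OS (log2 ratio 3.43 ± 0.056 SE, adjusted p = 3.01e-24). U-2 OS had more of the mesenchymal receptors PDGFRA (0.0498 against 28.2 CPM), PDGFRB (0.348 against 63.4 CPM), DDR2 (0.439 against 31.8 CPM) and IGF1R (82.1 against 257 CPM). AXL was high in both (970.3 against 588 CPM) and was not called at the 2-fold minimum.

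The epithelial junction genes were almost all higher in A-431. All 12 tested desmosome components were called, with a median log2 ratio of 5.84, and so were 23 of 29 genes of adherens and tight junctions (median 4.95), against CLDN6 alone in the other direction. CDH1, E-cadherin (chr16:68771195-68869440), was at 545, 552, 514 and 573 CPM in A-431 and 1.95, 1.34, 1.63 and 1.41 CPM in U-2 OS (log2 ratio 8.43 ± 0.083 SE, adjusted p = 1.58e-27). DSP, which ties desmosomes to keratin, held 747, 693, 626 and 889.7 CPM against 1.73, 1.51, 1.96 and 0.848 CPM (log2 ratio 8.94 ± 0.21 SE, adjusted p = 1.08e-09). In both genes every A-431 library was far above every U-2 OS library. PKP1, plakophilin 1, was at 133 ± 7.42 CPM in A-431 and at 0 in 2 of the 4 U-2 OS libraries, the other two at 0.037 and 0.177 CPM. The envelope-linked plakins PPL and EVPL were at 114 against 1.11 and 77.5 against 0.116 CPM, PKP3 at 104.8 against 3.21 and DSC3 at 107 against 0.0569. Components that U-2 OS also held were DSG2 (552 against 112 CPM), PKP2 (139.7 against 57 CPM) and JUP (433 against 52.3 CPM). Among junction genes MAL2, a protein of apical sorting, was at 2154 against 2.57 CPM, EPCAM at 561 against 5.55, CLDN4 at 355 against 19.3, CDH3, or P-cadherin, at 376 against 0.363, and the epithelial splicing factors ESRP1 and ESRP2 at 367 against 0.222 and 64.8 against 0.534. TJP1 and CLDN12, which many cell types use, were within 2-fold (405 against 312 and 78.4 against 77.8 CPM).

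Keratins, the intermediate filaments of epithelia, did not all follow. Of 17 tested, 11 were called higher in A-431 and 4 in U-2 OS. KRT13 (chr17:39657233-39661957), a keratin of stratified epithelia without a cornified layer, held 2667, 2872, 2742 and 3026 CPM in A-431 and 0.0444, 0, 1.85 and 1.41 CPM in U-2 OS (log2 ratio 11.62 ± 0.48 SE, adjusted p = 4.34e-07). The 2 U-2 OS libraries with over 1 CPM were those in a lane with A-431, by lanes inferred from read totals. Without U-2 OS library 3 the log2 ratio was 12.31. KRT8 and KRT18, the pair of simple epithelia, were high in both lines and higher in A-431 (2265 against 394 and 1173 against 247 CPM, log2 ratios 2.52 ± 0.056 and 2.25 ± 0.053). These genes overlap in the annotation, so reads shared by them were not counted for either. KRT81 was at 1860.0 against 228 CPM, KRT19 at 3.78 against 0.0756, KRT7 at 26.5 against 2.01, KRT16 at 9.83 against 1.12, KRT6A at 2.46 against 0.386, KRT86 at 32.8 against 0.54, KRT15 at 179.7 against 3.48 and KRT5, a basal keratin, at 75.6 against 2.47.

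KRT17, a keratin of basal and stressed epidermis, went the other way, with 102, 132, 84.3 and 118 CPM in A-431 and 462, 434, 503 and 460.3 CPM in U-2 OS (log2 ratio -2.09 ± 0.14 SE, adjusted p = 1.25e-06). The lowest U-2 OS library was over 3 times above the highest A-431 library. KRT14, the usual partner of KRT5, was at 0, 0.128, 0.129 and 0.169 CPM in A-431 against 10.03, 9.89, 11 and 9.44 CPM in U-2 OS (log2 ratio -6.50 ± 0.24 SE, adjusted p = 1.87e-17). KRT75, of hair follicle, had 3 counts in A-431, all in library 9, and 111, 107, 117 and 114 CPM in U-2 OS, a ratio of 3849.7 (95% interval 1317 to 18668). KRT6B had no count in A-431 and was at least 14.8-fold higher in U-2 OS. Several of these type I and type II keratins have near-identical copies among genes and pseudogenes, so the split of reads between them is uncertain. In cytoplasmic libraries the same 4 keratins were called higher in U-2 OS, and KRT17 had a log2 ratio of -1.93 ± 0.053.

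The basement membrane side was mixed. Of 10 genes of laminin-332 and hemidesmosomes, 5 were called higher in A-431, among them LAMA3, ITGA6, ITGB4 (436 against 26.2 CPM) and COL17A1. LAMB3, a laminin chain gene, was not called (166 against 123 CPM), and PLEC and COL7A1 were higher in U-2 OS (261 against 1226 and 0.298 against 10.2 CPM). DST was at 346, 284, 285 and 454 CPM in A-431 and 674, 437, 466 and 464 CPM in U-2 OS, groups that overlapped. Genes of epidermal differentiation were present as a subset. Of 34 listed, 19 were tested and 13 were higher in A-431, among them the kallikreins KLK5 (427 against 1.52 CPM) and KLK6 (665 against 62.8) and CALML5 (117 against 0.0361). Filaggrin, encoded by FLG, and transglutaminase 1, encoded by TGM1, were higher in U-2 OS (0.517 against 38.9 and 0.547 against 10.3 CPM). The antisense gene FLG-AS1 was at 0 against 11.8 CPM. Reads were counted without regard to strand, and the part of antisense reads in the FLG value was not tested. Loricrin and the small proline-rich genes SPRR1A, SPRR1B, SPRR2A, SPRR2D, SPRR2E and SPRR3, which build the cornified envelope, were below 0.3 CPM in both lines.

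The transcription factors of both programmes divided along the same lines with exceptions. Of 18 tested epithelial factors 17 were called higher in A-431 and none in U-2 OS, and KLF5 was not called (53.6 against 55 CPM). TP63, a factor that drives basal epidermis (chr3:189349178-189615065), held 39.7, 35.8, 41.7 and 34.7 CPM in A-431 and 0.222, 0.259, 0.665 and 0.459 CPM in U-2 OS (log2 ratio 6.50 ± 0.16 SE, adjusted p = 5.57e-21). GRHL2, a factor of epithelial junction genes, was at 156, 154, 138 and 153 CPM against 0, 0.0432, 0.185 and 0.106 CPM (log2 ratio 10.64 ± 0.15 SE, adjusted p = 3.66e-25). No U-2 OS library reached 1 CPM of either, and without U-2 OS library 3 the log2 ratio of GRHL2 was 11.31. EHF (167 against 3 CPM), ELF3 (93.9 against 0.116 CPM) and TFAP2A (93.4 against 1.08 CPM) followed, as did TFAP2C (20.2 against 0.0111), OVOL1 (28.9 against 0.0185), which restrains ZEB1, GATA3 (36 against 5.49), KLF4 (38.1 against 0.0765), GRHL1 (28.6 against 5.3), SOX15 (41.9 against 0.739), PITX1 (37.8 against 11.4) and BARX2 (22 against 2.3). FOXQ1 had a single count in U-2 OS and 20.1 CPM in A-431.

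Factors of the epithelial to mesenchymal transition were 7 of 11 higher in U-2 OS and 3 of 11 higher in A-431. ZEB1 (chr10:31607424-31818742) held 2.55, 1.58, 2.64 and 1.43 CPM in A-431 and 84.8, 75.8, 78.4 and 84.4 CPM in U-2 OS (log2 ratio -5.27 ± 0.12 SE, adjusted p = 4.50e-20). TCF4 was at 0.497 against 121 CPM (-7.92 ± 0.15), and PRRX2 was at 0 against 2.71 CPM and TWIST2 at 0.0757 against 0.977. PRRX1 had no count in A-431, at least 37.3-fold below U-2 OS. SNAI1 was at 0.938 against 6.44 CPM, and SNAI2, or Slug, was not called (15.7 against 13.3 CPM). TWIST1 (1.67 against 0.0177 CPM) and FOXC1 (46 against 14.8) were among the 3 exceptions. ZEB2, which counts among the 7, was low in both (0.607, 0.128, 0.321 and 0.421 CPM in A-431 and 0.621, 1.12, 1.11 and 1.2 CPM in U-2 OS). Its highest A-431 library came close to its lowest U-2 OS library, and its call was not kept under every alternative.

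**Figure D4:**
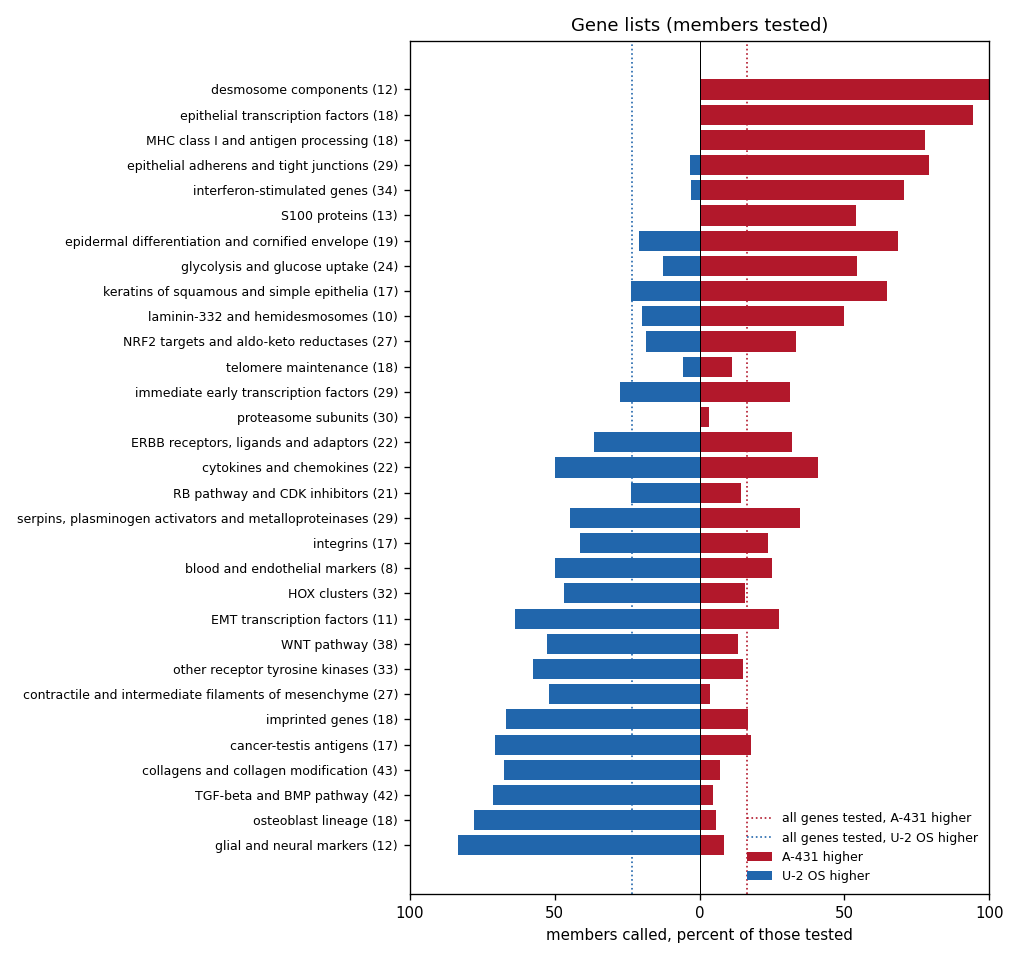
For each gene list reported, with the number of members tested in parentheses, bars give the percent of tested members called higher in A-431 (red, to the right) and higher in U-2 OS (blue, to the left), and dotted lines mark the share over all tested genes, 16.3% and 23.2%. Desmosome components reach 12 of 12 to the right, glial and neural markers 10 of 12 to the left, and proteasome subunits are almost empty.

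Of 27 tested genes of the mesenchymal cytoskeleton and its adhesion 14 were higher in U-2 OS. VIM, vimentin (chr10:17270240-17279592), held 2.19, 2.01, 2.06 and 4.51 CPM in A-431 and 1882, 1905, 1969.8 and 1872 CPM in U-2 OS (log2 ratio -9.49 ± 0.21 SE, adjusted p = 6.22e-10). CDH2, N-cadherin, was at 0.0809, 0.171, 0.0321 and 0.337 CPM against 182, 169, 173 and 176 CPM (log2 ratio -10.18 ± 0.14 SE, adjusted p = 4.39e-25). SPARC, the bone matrix protein osteonectin (chr5:151040657-151066536), was at 0.607, 0.942, 0.611 and 1.1 CPM against 1521, 1571, 1579.7 and 1604 CPM (log2 ratio -10.93 ± 0.096 SE, adjusted p = 5.07e-28). For each of the 3 genes the U-2 OS libraries were far above any A-431 library, and without A-431 library 12 the log2 ratio of CDH2 was -10.86. NES, the filament protein nestin, was at 0.0555 against 175 CPM, FLNC at 0.28 against 442, and CNN1, a smooth muscle calponin, at 0.00804 against 31.1. The actin-binding genes that both lines use were less far apart: MYH9 (1572 against 1893 CPM), ACTN1 (997 against 656) and FLNA (2443 against 2658) were not called, and TPM4 was the 1 member of 27 higher in A-431 (647 against 222).

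Collagens and their processing enzymes were called higher in U-2 OS in 29 of 43 tested members and in A-431 in 3 (COL4A5, COL9A3 and COL17A1). COL1A1 held 7.37, 5.82, 4.82 and 5.48 CPM in A-431 and 1282, 1228, 1298 and 1176 CPM in U-2 OS (log2 ratio -7.74 ± 0.092 SE, adjusted p = 4.11e-24). Its partner COL1A2, which encodes the other chain of type I collagen, stayed near the floor in both lines. It held 0, 0, 0.0643 and 0.211 CPM in A-431 and 0.488, 0.735, 0.739 and 0.459 CPM in U-2 OS, a log2 ratio of -3.06 ± 0.55 that was -4.33 without A-431 library 12 and lost its call when only the lanes without the other line were used (edgeR adjusted p = 0.00353). COL3A1 (0.259 against 89.9 CPM), COL5A1 (1.24 against 198), COL6A3 (0.347 against 163), COL11A1 (0.0512 against 144) and COL12A1 (0.296 against 579) were among the other collagen chains higher in U-2 OS. LOXL4 (0.146 against 169 CPM) and LOX (2.54 against 84.9) cross-link collagen, and SERPINH1 (64 against 387) folds it. The lysyl and prolyl hydroxylases PLOD1, PLOD2, PLOD3, P4HA1 and P4HA2 were not called. FN1, fibronectin, was at 51 against 824 CPM (-4.02 ± 0.12), and MMP2, a gelatinase, at 5.63 against 271 CPM.

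Of 18 tested osteoblast lineage genes, 14 were higher in U-2 OS, SPARC and COL1A1 among them. RUNX2, the master factor of osteoblasts (chr6:45295894-45632086), held 24.1, 19.1, 28.2 and 23.6 CPM in A-431 and 34.9, 33.7, 37.8 and 34.3 CPM in U-2 OS. The groups did not overlap, as was so for 76.8% of all tested genes, but the log2 ratio was -0.56 ± 0.089 and the gene was not called. SPP1, osteopontin, was at 0.0346 against 5.02 CPM, TNFRSF11B, osteoprotegerin, at 0.0105 against 22.5, BMP4 at 12.5 against 130.0 and CDH11 at 0.0499 against 44.4. LRP5, a WNT co-receptor, was the 1 member higher in A-431 (80.5 against 23.6 CPM), whereas its relative LRP6 was higher in U-2 OS (61.5 against 228). A further 11 genes of the list had too few counts to be tested, among them SP7, DLX5, IBSP and DMP1.

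Secreted signals differed in both pathways that act on mesenchyme. In the TGF-beta and BMP pathway 30 of 42 tested genes were higher in U-2 OS and 2 in A-431 (TGFBI and INHBB). TGFB2, a ligand, held 14.41, 14.2, 17.3 and 16.1 CPM in A-431 and 343, 323, 301 and 336 CPM in U-2 OS (log2 ratio -4.39 ± 0.068 SE, adjusted p = 1.10e-24). INHBA, a subunit of activin A, was at 7.7 against 236 CPM and INHBB, of activin B, at 84 against 0.221, the opposite order. The binding proteins LTBP1 (0.0476 against 121 CPM) and FSTL1 (225 against 1309) were U-2 OS genes, as were the pathway targets ID2, ID3, ID4, SMAD6 and SMAD7, and the core SMAD genes SMAD1 to SMAD5 were not called. In the WNT pathway 20 of 38 were higher in U-2 OS and 5 in A-431. DKK1, a secreted inhibitor, held 345, 356, 331 and 337 CPM in A-431 and 0.222, 0.302, 0.37 and 0.177 CPM in U-2 OS (log2 ratio 10.30 ± 0.1 SE, adjusted p = 1.37e-27). DKK2 and DKK3 had the reverse order, with DKK3 at 2.52 against 208 CPM and DKK2 at 0 in A-431. A-431 had WNT7A, WNT7B and WNT10A (61.4 against 4.3 CPM for WNT7B), and U-2 OS had WNT5A (0.0315 against 48.2), WNT5B and WNT11. The WNT target AXIN2 was at 0.103 against 31.8 CPM and LEF1 at 0.0208 against 22.7, while CTNNB1, beta-catenin, was not called (-0.078 ± 0.045).

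Interferon and antigen presentation genes were higher in A-431. Of 34 tested interferon-stimulated genes 24 were called higher in A-431 and 1, IFI44L, in U-2 OS, and the median log2 ratio was 1.85. The antiviral membrane gene IFITM3 was at 192 against 54.7 CPM. BST2, tetherin, held 157, 159, 143 and 152 CPM in A-431 and 3.24, 3.72, 5.25 and 3.46 CPM in U-2 OS (log2 ratio 5.27 ± 0.097 SE, adjusted p = 2.13e-21). IFIT2 was at 114 against 0.919 CPM, IFIT3 at 86.7 against 1.84, MX1 at 34.4 against 1.09, IFI27 at 41.7 against 0.189 and IFITM1 at 60.4 against 0.337. STAT2 and IRF9, factors through which interferon acts, were not called. Of 18 MHC class I and processing genes 14 were higher in A-431 and none in U-2 OS. HLA-B and HLA-C were at 451 against 152 and 552 against 144 CPM, and B2M, the light chain, at 1039 against 450.5. Reads of HLA genes are split among near-identical loci and depend on the alleles of each line, so the ratios of HLA-B and HLA-C are uncertain. Of 13 tested S100 genes 7 were higher in A-431 and none in U-2 OS, with S100A6 at 333 against 62.4 CPM, S100A11 at 526 against 144, S100A16 at 345 against 126 and S100A14 at 366 against 0.492, while S100A10 was not called (356 against 276). The cytokines IL1A (24.4 against 0.176 CPM) and IL1B (12.4 against 0.0296) and their antagonist IL1RN (67.3 against 0.0727) were A-431 genes, and CXCL14 (0.0416 against 208) a U-2 OS gene.

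Cell cycle inhibitors and cyclins differed gene by gene. CDKN1A, which encodes the inhibitor p21, held 41.7, 41.2, 39.8 and 42.1 CPM in A-431 and 152, 157, 164 and 155 CPM in U-2 OS (log2 ratio -1.93 ± 0.052 SE, adjusted p = 3.83e-20). Of 21 genes of the RB pathway 3 were higher in A-431 and 5 in U-2 OS, close to the shares over all tested genes (16.3% and 23.2%). CDKN2A, which encodes p16 and ARF, had 0 counts in all U-2 OS libraries and 0.809, 0.856, 0.964 and 0.927 CPM in A-431, at least 7.42-fold higher. Its neighbour CDKN2B was the reverse, 0 in A-431 and 8.91 CPM in U-2 OS, and MTAP, a metabolic gene of the same locus, was expressed in both and higher in A-431 (138 against 65.9 CPM). CCND2 (0.718 against 266 CPM) and CCNE1 (12 against 78.7) were U-2 OS cyclins and CCND1 was higher in A-431 (859 against 399). RB1, the E2F genes and CDK4 were not called.

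Among 18 telomere genes 15 were not called. TERT, the telomerase subunit, had 3 counts in all of U-2 OS and held 0.809, 0.642, 1.25 and 0.548 CPM in A-431, a ratio of 27.4 (95% interval 9.37 to 133). ATRX, a chromatin remodeller at telomeres, was at 194, 162, 200.04 and 217 CPM against 380.4, 386, 379 and 398 CPM, a log2 ratio of -0.997 ± 0.065 in favour of U-2 OS, just short of the 2-fold minimum. A count per gene does not tell whole transcripts from partial ones. POT1, which binds the single-stranded telomere end, was higher in A-431 (82.1 against 24.7 CPM), and RAD52, of DNA recombination, in U-2 OS (6.39 against 17.5). DAXX (85.4 against 109.8 CPM) and H3-3B (656 against 606) were close.

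Positional and germline genes gave sharp contrasts. Of 32 tested HOX genes and their non-coding neighbours 15 were higher in U-2 OS and 5 in A-431, against 23.2% and 16.3% of all tested genes. The A-431 count is thus near its share over all genes. The 5 lay in the HOXA cluster (HOXA2, HOXA3, HOXA5, HOXA9 and HOTAIRM1), with HOXA9 at 100.2 against 32.2 CPM. The U-2 OS genes included 5 of the HOXC cluster, with HOXC10 at 0.607, 0.856, 0.9 and 0.421 CPM in A-431 and 21.8, 21.6, 20.8 and 22.2 CPM in U-2 OS (log2 ratio -4.92 ± 0.14 SE, adjusted p = 1.33e-19). Of 17 tested cancer-testis antigens, expressed in germ cells and many tumours, 12 were higher in U-2 OS and 3 in A-431. PRAME held 5.34, 4.62, 4.5 and 4.59 CPM against 450.0, 463, 495 and 467 CPM (log2 ratio -6.62 ± 0.068 SE, adjusted p = 2.03e-27), MAGEA1 was at 0.199 against 149 CPM, the ubiquitous relatives MAGED1 and MAGED2 were at 63.6 against 436 and 63.9 against 291, and MAGEA4 was higher in A-431 (489 against 222), although MAGEA genes are near-identical copies. Imprinted genes were 12 of 18 higher in U-2 OS and 3 higher in A-431. IGF2 had no count in A-431 and 97.2, 80.4, 75.8 and 90.2 CPM in U-2 OS, at least 727-fold higher. H19, its imprinted neighbour, was higher in A-431 (22.8 against 9.15 CPM), as was MEST (95.9 against 0.151). SNRPN, which shares a transcript with SNURF, was at 0.0107 against 40.5 CPM, SGCE at 18.9 against 67.6 and GNAS at 175 against 1531.

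Neural genes were detected in the osteosarcoma line. Of 12 tested glial and neural markers 10 were higher in U-2 OS, with SOX2 at 0, 0, 0.0964 and 0.0843 CPM in A-431 and 17.5, 19.2, 19.3 and 19.2 CPM in U-2 OS, OLIG2 at 0 in A-431 and 4.13 CPM in U-2 OS, NCAM1, a neural adhesion molecule, at 0.125 against 131 CPM, and the vesicle fusion gene SNAP25 at 0.0101 against 11.4. The astrocyte genes GFAP and FABP7 were below 1 CPM in all 8 libraries. The presynaptic scaffold gene PCLO held 1.62, 1.16, 0.804 and 0.801 CPM in A-431 and 670.3, 647, 633 and 650.4 CPM in U-2 OS (log2 ratio -9.23 ± 0.10 SE, adjusted p = 9.55e-26). By lanes inferred from read totals, U-251MG, a glioblastoma line, was sequenced with U-2 OS libraries 1 and 2 and with A-431 libraries 11 and 12. U-2 OS libraries 3 and 4, in lanes with A-431, held 19.3 and 19.2 CPM of SOX2 and 3.99 and 4.45 CPM of OLIG2. The part of the lane in these values was not tested. In A-431, MBP was at 107 against 0.671 CPM and CD68, a lysosomal protein abundant in macrophages, at 159 against 3.35, while ITGAM was at 1.07, PTPRC at 0.0304 and CD14 at 0.0289.

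Glycolysis genes were more often higher in A-431, and most proteasome subunits were not called. Of 24 glycolysis genes 13 were higher in A-431 and 3 in U-2 OS, with a median log2 ratio of 1.05. Hexokinase 2 (HK2, 137 against 24.2 CPM), PGK1 (1224 against 443) and CA9, a hypoxia-induced carbonic anhydrase (60.1 against 0.156), were higher in A-431. SLC2A3, a glucose transporter (0.0161 against 54.3 CPM), and CA12 (0.0212 against 60.2) were higher in U-2 OS. GAPDH, ENO1 and PKM were not called, and LDHA stood just past the 2-fold minimum (1.04 ± 0.059). ALDH1A3, a retinaldehyde dehydrogenase, was at 564 against 0.275 CPM. Of 30 proteasome subunits 29 were not called and PSMD13 was higher in A-431 (174 against 75.5 CPM). The closest abundant genes were ACTB (7306 against 7549.8 CPM, log2 ratio -0.047 ± 0.058), HSP90AB1 (0.072 ± 0.054), RPL11 (0.087 ± 0.045), APP (-0.027 ± 0.049), RPS24 (0.045 ± 0.045) and NPM1 (-0.079 ± 0.056), all with an edgeR adjusted p of 0.05 or more. The sign of ACTB, APP and RPS24 turned with a correction for GC content.

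Among immediate early genes and their feedback regulators 9 of 29 were higher in A-431 and 8 in U-2 OS. Over all tested genes the shares were 16.3% and 23.2%, which also apply to the other lists of this paragraph. FOSL1, an AP-1 subunit, was at 176 against 20.8 CPM (3.08 ± 0.078) and FOSL2 had the reverse order (142 against 377 CPM, -1.40 ± 0.049). DUSP4, DUSP5 and DUSP6, phosphatases of the MAP kinases, were higher in A-431 (DUSP6 at 19.2 against 0.868 CPM), and DUSP1 was higher in U-2 OS (7.66 against 34.9). JUN, EGR1 and MYC were not called. Of 27 NRF2 targets 9 were higher in A-431 and 5 in U-2 OS, FTL, ferritin light chain, among the latter (256 against 721 CPM) and FTH1, the heavy chain, not called. Of 17 integrin genes 4 were higher in A-431 (ITGA2, ITGA6, ITGB4 and ITGB6) and 7 in U-2 OS, where ITGA4 (0.0105 against 13.2 CPM) and ITGA11 (0.00804 against 3.39) were nearly absent from A-431. Of 29 serpins and proteases 10 were higher in A-431, with SERPINB5 at 148 against 0.681 CPM and PLAU at 218 against 27, and 13 in U-2 OS, with SERPINE2 at 0.0419 against 177.

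Some genes were present in one line and close to absent in the other. At least 10 CPM in every library of one line and under 0.1 CPM in every library of the other was found for 60 genes of A-431 and 289 of U-2 OS, of which 54 and 265 are annotated as protein-coding. The A-431 genes with the most counts were CALML5 (117 CPM), BNC1, a basal keratinocyte factor (72.5), TMPRSS4 (64.2), FXYD3 (62.7) and TC2N (53.3). Those of U-2 OS were CXCL14 (208 CPM), SERPINE2 (177), NES (175), THY1, a surface antigen of mesenchymal cells (170.0), and SDC2, a syndecan (147).

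Some abundant genes with large ratios belonged to no list. F3, tissue factor, which starts blood coagulation, held 1715, 1657, 1877 and 1796 CPM in A-431 and 4.97, 8.64, 7.47 and 8.48 CPM in U-2 OS (log2 ratio 7.89 ± 0.14 SE, adjusted p = 8.13e-14). SPINT2, an inhibitor of serine proteases at epithelial surfaces, held 530.4, 555, 505 and 499.9 CPM against 0.399, 0.475, 0.776 and 0.707 CPM (log2 ratio 9.75 ± 0.098 SE, adjusted p = 1.66e-27). LIPA, the lysosomal acid lipase, held 701, 699, 702 and 676 CPM against 33.3, 34.8, 32.9 and 36 CPM (log2 ratio 4.34 ± 0.053 SE, adjusted p = 2.54e-26). The groups of all 3 genes lay at least 10-fold apart. In U-2 OS DHRS2, a mitochondrial dehydrogenase, held 1123, 1118, 1208 and 1187 CPM, against 1.25, 1.71, 0.9 and 0.843 CPM in A-431 (log2 ratio -9.96 ± 0.11 SE, adjusted p = 1.25e-25). CLU, the secreted chaperone clusterin, held 1180.2, 1137, 1125 and 1162 CPM in U-2 OS and 5.91, 6.98, 5.56 and 5.73 CPM in A-431 (log2 ratio -7.58 ± 0.071 SE, adjusted p = 8.69e-28). EDIL3, an integrin ligand of the matrix, held 933, 973, 1002 and 1045 CPM in U-2 OS and 0.648, 0.557, 0.0964 and 0.169 CPM in A-431 (log2 ratio -11.44 ± 0.18 SE, adjusted p = 4.65e-15). For DHRS2, CLU and EDIL3 the A-431 libraries did not pass 10 CPM. None of their groups overlapped, as was so for 76.8% of all tested genes. FBN2, fibrillin 2, and EEF1A2, an elongation factor of muscle and nerve, were at 0.0524 against 307 and 0.122 against 359 CPM.

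Low values in the other line moved with the sequencing lane. No label gives the lane or multiplex tag of a library. Both were inferred by matching the read totals of each library to those the study lists. By this match lanes 3 and 4 held 1 library of each line, and the other libraries shared lanes with U-251MG. For 36 genes with at least 100 CPM in A-431 and near absence from U-2 OS and U-251MG, the summed level was 0.277% and 0.248% of that of A-431 in the U-2 OS libraries of the shared lanes and 0.185% and 0.202% in the others, and 30 of the 36 were higher in the shared lanes. For 18 genes of the opposite kind it was 0.378% and 0.349% against 0.239% and 0.281%, and all 18 were higher in the shared lanes. FLNC is an example, at 0.445, 0.642, 0.0321 and 0 CPM in A-431 libraries 9 to 12, the first 2 of which shared lanes with U-2 OS. Such low values were not all below 1 CPM. In U-2 OS libraries 1 to 4 KRT13 was at 0.0444, 0, 1.85 and 1.41 CPM. MAL2 was at 2.26, 1.77, 3.36 and 2.9 CPM in the same order. The part of the lane in these low values was not tested, and folds of genes nearly absent from one line rest on them. With the 4 libraries of unshared lanes alone, a setting added after the data were seen, 2920 genes were called higher in A-431 and 3960 in U-2 OS. All U-2 OS libraries carried one multiplex tag and all A-431 libraries another, so tag and line cannot be told apart.

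Differences also ran along chromosomes. Over runs of 25 neighbouring tested protein-coding genes, 90% of 13063 run medians lay between -0.87 and 0.76. The lowest was on chromosome 5 (140018325 to 140592143 in GRCh37), with a median log2 ratio of -7.64, where 18 of 25 genes were called higher in U-2 OS and none in A-431. The 18 were protocadherins of the alpha and beta clusters, neuronal adhesion molecules, while the 7 genes before them, such as IK (65.7 against 68.6 CPM), ZMAT2 and HARS1, were not called. Members of this family share sequence, and the alpha genes share exons, so the split of reads between them is uncertain. On the X chromosome a run from 77154937 to 96859996 had a median of -6.77, with 15 genes higher in U-2 OS and 4 in A-431. Another, from 100877787 to 103360533 with the BEX and TCEAL genes, had a median of -3.98, with 15 and 5. Within these runs PGK1 (1.47 ± 0.056) and MORF4L2 (1.04 ± 0.06) were higher in A-431, and COX7B, BRWD3, BEX3 and TCEAL9 were not called, with log2 ratios from -0.63 to 0.62. The highest runs were on chromosome 21 (37442239 to 42841998, median 1.86, with 22 genes higher in A-431 and 2 in U-2 OS), chromosome 3 (141594966 to 149686172, 1.76) and chromosome 10 (88718356 to 92617796, 1.76). The chromosome 3 run held 18 genes higher in A-431 and 4 in U-2 OS, and the chromosome 10 run 18 and 0. In the highest runs TTC3 (1.09 ± 0.056), PSMG1 (2.25 ± 0.061), BACE2 (2.47 ± 0.057), HLTF (1.52 ± 0.055) and KIF20B (1.31 ± 0.055) were higher in A-431. PLOD2, of the chromosome 3 run, was not called. The chromosome 10 run also holds IFIT1, IFIT2, IFIT3 and IFIT5. In the cytoplasmic libraries the same 6 runs had medians of -7.90, -6.70, -3.17, 1.75, 1.66 and 1.64.

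The same contrast was made in cytoplasmic RNA, in libraries of their own. One U-2 OS cytoplasmic library had more reads outside exons (18.6%) than the others and could not be matched to the study's read totals. The methods say that 1 such U-2 OS extract carried the peak of nuclear RNA and was set aside, and the sources used here do not say whether it is this library. With all 8 libraries 3140 genes were higher in A-431 (16.9% of 18586 tested) and 4216 in U-2 OS (22.7%). Of the genes called in total RNA, 2726 of 2948 (92.5%) and 3760 of 4194 (89.7%) were called in the same direction in the cytoplasm, which is 86.8% and 89.2% of the cytoplasmic calls. None was called in the opposite direction. EGFR had a log2 ratio of 8.40 ± 0.13 in cytoplasmic RNA, CDH1 of 7.83 ± 0.088, VIM of -9.02 ± 0.16, KRT13 of 11.27 ± 0.57 and IGF2 of -10.39 ± 0.15. A difference of the line ratio between fractions was called for 56 of 19187 genes (0.292%), and 3012 had an unadjusted p under 0.05. In 45 of the 56 the ratio was lower in the cytoplasm. The largest were IQGAP1, a scaffold of the actin cortex (log2 ratio 0.62 in total and -2.09 in cytoplasmic RNA) and SPTBN1, a spectrin (-0.19 and -2.42). FLNA, PLEC, SPTAN1, FN1, COL4A1 and COL4A2 were also among the 45. For IQGAP1 the line with the higher level thus depended on the fraction. Without the U-2 OS library that had more reads outside exons, 3220 and 4289 genes were called. The count of genes whose line ratio differed between fractions then rose to 97 of 19449, of which 56 were lower in the cytoplasm, and 55 of the genes called with the library were among the 97. IQGAP1 and SPTBN1 differed between the fractions by -2.71 and -2.24 on the log2 scale with the library and by -2.67 and -2.23 without it.

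**Figure D5:**
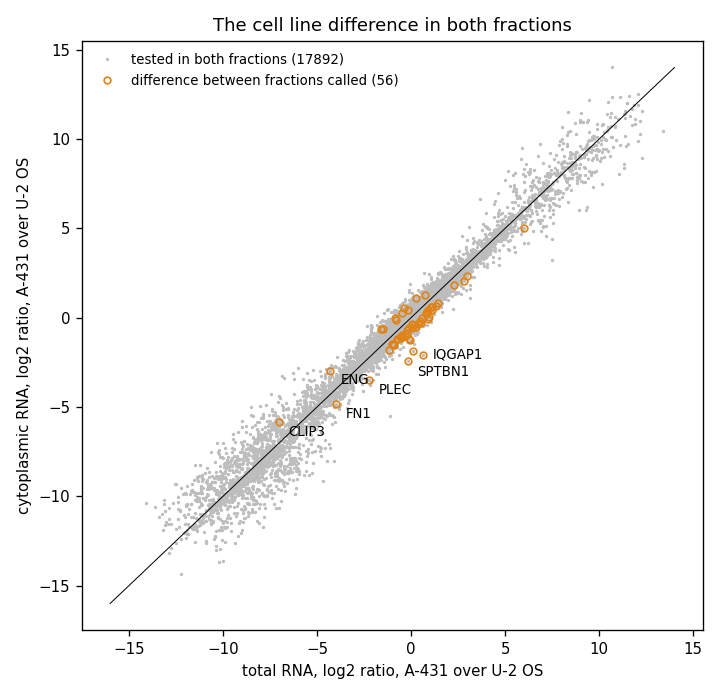
Each grey point is a gene tested in both fractions, with the log2 ratio, A-431 over U-2 OS, in total RNA on the horizontal axis and in cytoplasmic RNA on the vertical axis, and the line marks equal ratios. Orange circles are the 56 genes whose ratio differed between fractions, of which 45 lie below the line, with IQGAP1 and SPTBN1 among the furthest from it.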

How the data were processed

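Poly(A) RNA of 3 human cell lines was sequenced, and per the labels and methods the authors used TopHat 1.1.4 and SAMtools 0.1.8 for alignment, on build hg19 (GRCh37). The deposited counts are whole reads per Ensembl gene from HTSeq 0.4.6 in intersection-strict mode, without regard to strand. The authors also deposited RPKM values from rpkmforgenes, used here to choose named genes and for 1 alternative. Sources differ on the RNA kit and on single or paired reads. Entries that name no gene held 26.7% to 30.2% of reads in the 8 libraries and were left out, and 0 columns of other samples were met. Reads in an exon of 2 overlapping genes count for neither, and reads of near-identical copies were left out or split.

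Genes with enough counts by filterByExpr were tested with edgeR 4.0.16 (R 4.3.3), TMM scaling and the quasi-likelihood test, A-431 against U-2 OS on 8 libraries, with Benjamini-Hochberg adjustment over all genes tested, and called at an adjusted p under 0.001 and at least 2-fold. Every adjusted p of the text is from this test unless another is named. The cytoplasmic libraries had a fit of their own, and the difference between fractions was an interaction term in 16 libraries. CPM are counts per 1000000 counts of the tested genes, with each library total multiplied by its TMM factor. The factors were 0.959 to 0.970 in A-431 and 1.026 to 1.045 in U-2 OS. CPM are means over 4 libraries unless given per library, and single-library values follow the order 9 to 12 and 1 to 4. On simulated counts of 17699 genes for this contrast, 99 of 100 genes changed by a log2 of 1.5, and 100 of 100 changed by 3, were called, with 0 calls among unchanged genes. The changed genes were drawn only from those above a minimum mean count, as many raised as lowered. The simulation thus does not cover genes of low count or a contrast in which many genes differ. Floors are 3 counts per library, and intervals cover counting error only. Log2 ratios of genes near 0 in a line depend on the prior count.

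Members and the gene lists (887 entries, 16 without a match) were chosen with earlier results of these data known. The rule for named genes took, in each direction, the 12 genes of highest RPKM among protein-coding genes called with a log2 ratio of at least 4, then the 4 members of highest RPKM in each list, all called members of 5 epithelial, EMT and ERBB lists, the 6 most abundant genes with a ratio near 0, a fixed set of markers, and 3 genes in each named chromosome run. Other genes were named after their values were seen. Alternatives were DESeq2 1.42.0, limma 3.58.1 on log2(RPKM + 0.1), other scalings, filters and thresholds, a GC offset, lane and replicate blocks, thinning and leaving out libraries. Promoter letters come from RefSeq (GRCh38.p14), whose coordinates were not mixed with those of GRCh37. Some genes and 1 list are not reported here.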

Additional observations from a re-analysis of the deposited data

Results flagged for a closer look

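In 17 of 377 groups of 4 libraries checked, 1 library stood far from the other three by Dixon's test at the 95% level, and chance flags about 1 in 20 groups. The values that follow are CPM. U-2 OS library 1 stood apart most often, with DST, the cytolinker of hemidesmosomes, at 673.9 against 437.1 to 465.7, MET at 117.8 against 103.8 to 105.6, LRP6 at 247.7 against 219.5 to 223.2, ZEB2 at 0.621 against 1.11 to 1.20 and SOX2 at 17.5 against 19.2 to 19.3. In U-2 OS library 3 MMP2 was at 296.5 against 262.3 to 264.6, and MAGED2 was at 335.8 against 273.2 to 278.6. In U-2 OS library 4 OLIG2 was at 4.45 against 3.99 to 4.04. In A-431 library 12 VIM was at 4.51 against 2.01 to 2.19, LIPA at 676.1 against 698.6 to 702.4, APP at 747.6 against 692.8 to 700.2 and RPS24 at 391.4 against 365.6 to 367.9. In A-431 library 11, the one with the highest mitochondrial share of its line, FOXQ1 was at 22.95 against 19.1 to 19.4, H3-3B at 678.9 against 646.2 to 649.7 and FBLN1 at 40.1 against 42.1 to 42.4. In A-431 library 9 FTL was at 279.1 against 244.9 to 249.4, and PRAME was at 5.34 against 4.50 to 4.62.

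The difference between the lines was itself different in cytoplasmic and total RNA for 5 of the genes named by rule, in the interaction test of edgeR. The log2 ratio, A-431 over U-2 OS, was lower in cytoplasmic RNA by -1.07 for FLNA (adjusted p = 1.02e-05), by -0.84 for FN1 (adjusted p = 0.000199), by -0.62 for COL4A1 (adjusted p = 0.000116), by -0.59 for COL4A2 (adjusted p = 0.000369) and by -0.48 for DSG2 (adjusted p = 0.000369). These are the difference of the ratios, cytoplasmic minus total. IQGAP1, SPTBN1, PLEC, SPTAN1 and ITGA2, named after their values were seen, passed the same test, with differences of -2.71, -2.24, -1.27, -1.19 and -0.63. Without the U-2 OS cytoplasmic library that could not be matched to the read totals, the differences of these 10 genes were -2.67 to -0.52, all with an edgeR adjusted p under 0.001.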

How the results depend on the processing

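Calls by direction, A-431 higher and U-2 OS higher, stayed within 1.5 times of those of the report under every alternative but one: without a fold minimum they were 5805 and 6842. DESeq2 gave 3113 and 4677, a test against 2-fold (glmTreat) 2167 and 3345, limma on RPKM 2205 and 3658, no filter on low counts 3350 and 5059, and a GC offset 3226 and 3944. Leaving out 1 library gave 2969 to 3087 and 4133 to 4320, and a difference in genes per library of -2751.75 to -2510.5. Between 91.8% and 99.8% of the called genes kept their call under alternatives other than glmTreat (77.2%) and limma on RPKM (78.1%, with 28 genes of opposite sign). Among named genes those at the 2-fold minimum or at low level changed their call most often, among them ZEB2, ATRX, NRG4, MORF4L2 and LDHA. Signs turned for values near 0 and for NRG4, called at -1.03 and turned with limma on RPKM, and the cause was not tested. With a GC offset the log2 ratio was 0.126 for FLNA, 0.030 for ACTB, 0.077 for APP and -0.030 for RPS24, and the median was 0.101 for the RB list. Upper quartile scaling gave -0.026 for RPS24. With limma on RPKM it was 0.535 for NRG4 and -0.326 for H3-3B, and the median of the immediate early list was -0.173. The lane block gave 0.055 for ACTB, lanes without the other line 0.022 for APP and 0.023 for IK, all 12 total RNA libraries 0.0015 for APP, and no filter 0.00940 for APP. Leaving out 1 library gave -0.085 to 0.019 for ACTB and -0.054 to 0.014 for APP. The ratio of 23 named genes, nearly absent from 1 line or low in both, moved by over 1.5 times when 1 library was left out. All kept their direction and call. Without the unmatched U-2 OS cytoplasmic library, the line ratio differed between fractions for 97 genes in place of 56, a fit also added after seeing the data. The titles number the libraries through the series, so the groups share no number there. The study's own sample names do, and a replicate block on those numbers, added after seeing the data, gave 2939 and 4183 calls, with 2 genes of the naming rule lost, ZEB2 among them, and ATRX gained. Deviations of same-numbered libraries correlated at -0.026 to 0.0024 over 18095 genes, so the numbers were not taken as pairs.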
